A study of Mus musculus with 12 samples.

Results

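The genes described here encode 10 surface or secreted molecules through which antigen-presenting cells and macrophages stimulate or restrain lymphocytes and phagocytosis, and they were taken by name from the 55401 genes of the count tables. They are the PD-1 ligands Cd274 and Pdcd1lg2, the B7 ligands Cd80 and Cd86, the receptor Cd40, the inhibitory molecules Vsir, Havcr2 and Lgals9, the CD47 receptor Sirpa, and Pvr. All 10 had 1 row each in both tables and passed the low-count filter in both, so that 10 of the 17532 genes tested for genotype and 10 of the 17630 tested for stage are members. Bulk RNA-seq was made from tumor-associated macrophages (TAMs), sorted by the study's methods as CD45+CD11b+Ly6C-Ly6G-F4/80+ cells from subcutaneous B16 melanomas of mice. In the genotype experiment, 3 samples were labelled as from AMPKfl/fl mice (WT) and 3 as from AMPKfl/flLyz2cre/cre mice (AMPK-KO), all 15 days after implantation and all carrying the floxed alleles. In the stage experiment, 3 samples came from tumors of 8 days (early-stage) and 3 from tumors of 15 days (late-stage) in mice whose genotype field reads WT, with no floxed allele or cre named. No sample in either experiment received a treatment.

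The cre of the AMPK-KO mice is driven by Lyz2, a gene of monocytes, macrophages and neutrophils, so that deletion is not restricted to TAMs. The genotype field of AMPK-KO replicates 2 and 3 reads Lyz3cre/cre and Lyz4cre/cre, while their titles read Lyz2cre/cre. The methods give an age of 5 weeks for the mice used, name the purchased and implanted C57BL/6 mice as female, and do not say whether a sample is 1 tumor or a pool, so p-values measure the spread between these samples, which may be technical.

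T cells that recognize antigen need a second signal, which CD80 and CD86 give by binding CD28. The same ligands bind the inhibitory receptor CTLA-4, and PD-L1 (Cd274) and PD-L2 (Pdcd1lg2) restrain T cells through PD-1. CD40 receives the CD40 ligand of helper T cells and licenses the antigen-presenting cell, whereas VISTA (Vsir), TIM-3 (Havcr2) and galectin-9 (Lgals9) are counted among the inhibitory checkpoints, SIRPα (Sirpa) restrains phagocytosis on meeting CD47, and CD155 (Pvr) binds the activating receptor DNAM-1 and the inhibitory receptors TIGIT and CD96. Interferon-γ is a known inducer of PD-L1.

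The promoters of 3 members are shown, because the PD-1 ligands moved together in both comparisons and because Lgals9, which did not follow them, holds the interferon motif searched for here. Each is the RefSeq sequence of build GRCm38.p6 from 250 bases before to 50 bases after the gene start, 5′ to 3′ on the strand of the gene. The starts used here are those of RefSeq and can differ from the gene coordinates given below. RefSeq windows were found for 6 of the 10 members (Cd274, Pdcd1lg2, Cd80, Vsir, Havcr2 and Lgals9). Capitals mark a match to the NF-κB consensus in Pdcd1lg2 and matches to the core of the interferon-stimulated response element (ISRE), GAAANNGAAA, in Lgals9.
Cd274 (chr19:29367188-29367487, plus strand): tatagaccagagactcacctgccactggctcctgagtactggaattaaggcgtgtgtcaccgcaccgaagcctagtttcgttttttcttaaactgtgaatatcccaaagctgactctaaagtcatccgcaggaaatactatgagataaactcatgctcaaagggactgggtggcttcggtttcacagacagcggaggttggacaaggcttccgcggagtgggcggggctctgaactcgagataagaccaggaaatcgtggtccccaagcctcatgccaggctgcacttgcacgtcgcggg
Pdcd1lg2 (chr19:29410669-29410968, plus strand): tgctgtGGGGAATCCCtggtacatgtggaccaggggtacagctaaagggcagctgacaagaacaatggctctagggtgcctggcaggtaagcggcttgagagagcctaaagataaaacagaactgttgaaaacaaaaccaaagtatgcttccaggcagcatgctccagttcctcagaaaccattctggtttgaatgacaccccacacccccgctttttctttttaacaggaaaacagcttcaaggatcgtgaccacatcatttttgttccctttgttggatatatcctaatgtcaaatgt
Lgals9 (chr11:78984875-78985174, minus strand): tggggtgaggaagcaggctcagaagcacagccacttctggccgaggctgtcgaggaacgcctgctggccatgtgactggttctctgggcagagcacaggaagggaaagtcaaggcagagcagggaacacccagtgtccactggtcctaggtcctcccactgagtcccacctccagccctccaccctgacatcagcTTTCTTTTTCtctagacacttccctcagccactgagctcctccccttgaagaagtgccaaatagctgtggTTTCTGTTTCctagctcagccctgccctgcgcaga
The match in Pdcd1lg2 starts 244 bases before the gene start, and the first of the 2 matches in Lgals9 starts 55 bases before it. Both matches in Lgals9 are the reverse complement of the core. On either strand, the NF-κB consensus was found in 8.46% of the 32851 promoter windows of this size, the ISRE core in 3.44%, and the interferon-γ activated site GAS (TTCNNNGAA) in 8.30%. None of the 6 windows had a GAS match, and the windows of Cd274, Cd80, Vsir and Havcr2 matched none of the 3 motifs. The Cd80 window (chr16:38458683-38458982) lies inside the gene, downstream of the Cd80 start given below. These matches describe letters in short windows and were not tested for binding.

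The libraries held 71019494 to 84470374 counts. Prkaa1, which encodes the targeted AMPKα1 subunit, had 4535 to 5165 counts in WT and 3285 to 3467 in AMPK-KO, and fell by 0.60 on the log2 scale (SE 0.07, adjusted p = 2.3e-04). Counts are per whole gene and do not resolve the floxed exon. Lyz2 had 671 to 975 counts in the samples labelled AMPKfl/fl and 676 to 1088 in AMPK-KO, against 88212 to 249165 in the stage experiment. The cre allele is inserted into Lyz2 and disrupts it, so the low Lyz2 counts of the samples labelled AMPKfl/fl go against a label without cre. WT stands below for these samples as labelled, and every genotype comparison rests on that label. The 4 Y-linked genes summed to 9229 to 12183 counts in the genotype experiment, to 3435 to 4035 in early-stage and to 0 to 4 in late-stage samples. Xist, which is transcribed in female cells, had at most 158 counts in the genotype experiment and 13568 to 22094 in early-stage samples. Every early-stage sample thus held both Y-linked and Xist transcripts, and whether each pooled mice of both sexes was not tested. The Y-linked counts of the genotype and early-stage samples go against mice that were all female. Early-stage and late-stage samples differ in these sex-linked transcripts, so that stage and this difference cannot be told apart. All 12 macrophage markers were detected in both experiments, given here as summed CPM, the reads of a gene scaled to a common library size. They were at 18541.6 to 20651.5 CPM in WT and 17073.1 to 17708 in AMPK-KO. At an adjusted p under 0.05, 2 were higher (Itgam by 0.55 and Csf1r by 0.14 on the log2 scale). The 3 lower were Cd68 (by 0.55), Mrc1 (0.51) and Apoe (0.47). By stage the sums were 12567.6 to 16490.6 CPM early and 15785.6 to 15902.7 late, with C1qa higher by 0.49 and Mrc1 lower by 0.62. The neutrophil marker Ly6g, gated out by the methods, had 0 counts in the genotype experiment and at most 5 in the stage experiment. The methods also gate out Ly6C, while legends of the supplementary figures list Ly6C, and in part Ly6G, as positive. Ly6c2, which encodes a form of Ly6C, was present. It had 1259 to 1424 counts in WT and 2735 to 3521 in AMPK-KO, a log2 fold change of 1.19. By stage it had 2320 to 2622 counts early and 574 to 782 late, a log2 fold change of -1.84. Markers of other cells were also present and moved with the groups. From WT to AMPK-KO the monocyte markers went from 515 to 545 CPM to 835 to 863 CPM, NK cell markers from 49.8 to 59.5 to 135 to 141 CPM, and B16 melanoma markers from 998 to 999 to 676 to 716 CPM. From early to late stage the monocyte markers went from 562 to 673 CPM to 228 to 259 CPM, NK cell markers from 124 to 140 to 62.1 to 76.7 CPM, and melanoma markers from 1662 to 1806 to 766 to 1202 CPM. In bulk samples fewer cells of a type and less RNA per cell cannot be told apart, and the part of these shifts in the results below was not tested.

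**Figure D1:**
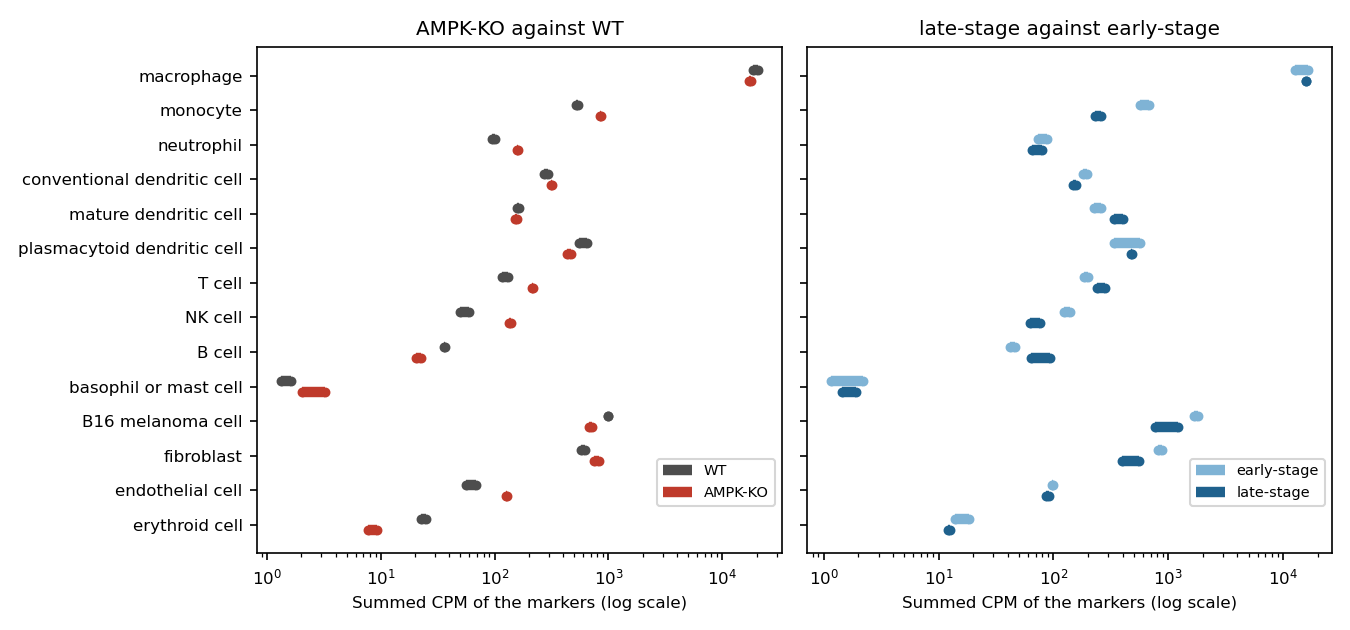
Summed CPM of marker gene lists (horizontal axis, log scale) for 14 cell types, with 1 bar per group running from the lowest to the highest of 3 libraries, for genotype (left) and stage (right). Macrophage markers lie at 12567.6 CPM or more in every library, and the monocyte and NK cell markers lie higher in AMPK-KO than in WT and lower in late-stage than in early-stage samples.

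TAMs labelled AMPK-KO held more transcript of most of these ligands than those labelled WT. In AMPK-KO against WT, 8 of the 10 members were higher and 2 lower at an adjusted p under 0.05 by the quasi-likelihood test of edgeR, and the groups of 3 did not overlap for any of the 10. Over all genes tested, 11.3% were called higher, 9.78% lower, and 37.2% had groups that did not overlap. The median log2 fold change of the members was 0.39, against -0.00369 over all genes. Pdcd1lg2 was the single member whose change also exceeded 1 on the log2 scale, as did that of 2.05% of all genes in the higher direction. With 1 library left out, 6 to 8 members were called higher and 0 to 1 lower. The count lower was 0 without WT replicate 2, WT replicate 3 or AMPK-KO replicate 2, and 1 without WT replicate 1, AMPK-KO replicate 1 or AMPK-KO replicate 3.

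In late-stage against early-stage TAMs, 0 of the 10 members were called higher and 5 lower, against 4.31% and 4.88% of all genes. At an unadjusted p under 0.05, 1 member was higher (Havcr2), and DESeq2 called 0 higher and 5 lower. The median log2 fold change of the members was -0.20, against 0.00266 over all genes, and 7 members had groups that did not overlap, as did 31.2% of all genes. Cd274, Pdcd1lg2, Cd80 and Cd86 were higher in AMPK-KO and lower in late-stage samples, Pvr was lower in both, Lgals9 was lower in AMPK-KO and not called by stage, and Cd40, Vsir, Havcr2 and Sirpa were higher in AMPK-KO and not called by stage. The comparisons share no samples, and the difference between them was not tested. The count lower by stage was 2 without early-stage replicate 2, late-stage replicate 2 or late-stage replicate 3, 3 without late-stage replicate 1, 5 without early-stage replicate 1 and 4 without early-stage replicate 3.

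**Figure D2:**
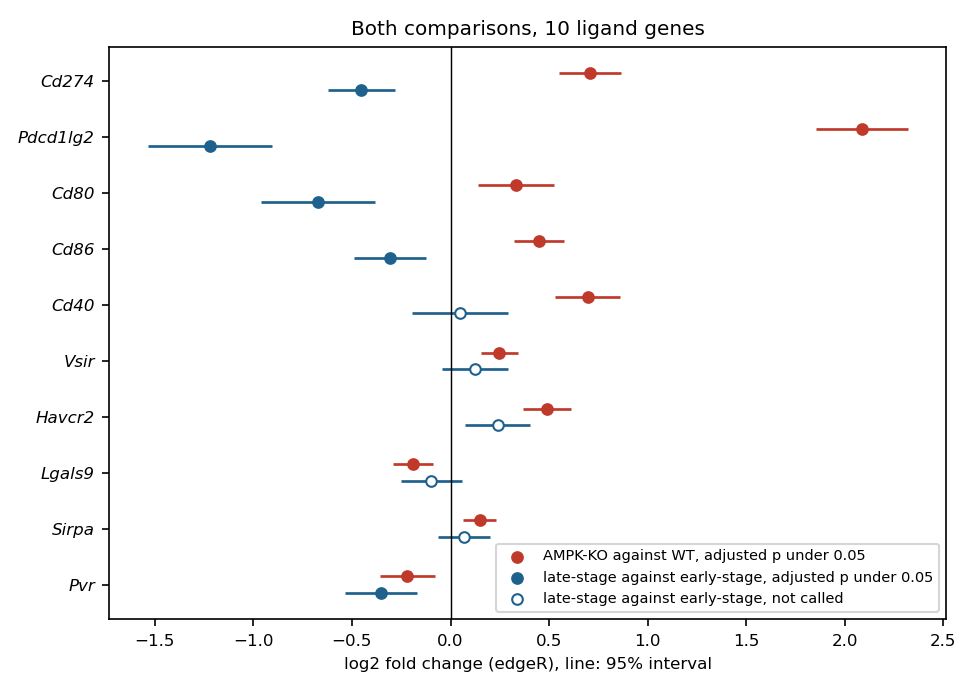
Log2 fold change (horizontal axis) with its 95% interval for the 10 members, for AMPK-KO against WT in red and late-stage against early-stage in blue, where filled points have an adjusted p under 0.05. The first 4 genes lie right of 0 in red and left of 0 in blue, and Pdcd1lg2 lies farthest from 0 in both.

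Both PD-1 ligands were higher in AMPK-KO and lower in late-stage samples, and Pdcd1lg2, which encodes PD-L2, had the largest log2 fold change of the 10 members in each comparison. Pdcd1lg2 (ENSMUSG00000016498.10, chr19:29410919-29471161, plus strand, GRCm38) was at 6.37, 6.58 and 7.94 CPM in WT replicates 1 to 3 and at 28.7, 30.7 and 29.6 CPM in AMPK-KO. These levels rest on 459, 475 and 648 counts in WT and on 2116, 2466 and 2389 in AMPK-KO. The lowest AMPK-KO sample was thus more than 3 times the highest WT sample, and the log2 fold change was 2.09 (SE 0.11, 95% interval 1.86 to 2.32, adjusted p = 6.6e-07), or 4.25-fold. Among the 17532 genes tested, it ranked 46 by p and 217 by the size of its change. In the stage experiment, Pdcd1lg2 was at 11.4, 13.7 and 14.2 CPM in early-stage and at 6.04, 5.84 and 4.99 CPM in late-stage samples. Every late-stage sample lay under every early-stage sample, and the level fell by 1.22 on the log2 scale (SE 0.14, interval -1.54 to -0.91, adjusted p = 6.9e-04), 2.33-fold lower. It was also the single member lower by more than 1 on the log2 scale by stage, as were 1.26% of all genes tested. Its call held in all 12 alternatives of each comparison, with log2 fold changes of 2.03 to 2.19 for genotype and -1.31 to -1.14 for stage.

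Cd274 (ENSMUSG00000016496.7, chr19:29367455-29388095, plus strand) was far more abundant. PD-L1 transcript was at 223, 196 and 198 CPM in WT and at 366, 329 and 311 CPM in AMPK-KO. The groups were separate, and the log2 fold change was 0.71 (SE 0.07, interval 0.55 to 0.86, adjusted p = 6.2e-05), or 1.63-fold. By stage, Cd274 was at 250, 282 and 273 CPM early and at 208, 188 and 193 CPM late. It was lower in every late-stage sample than in any early-stage sample and fell by 0.45 (SE 0.08, interval -0.62 to -0.28, adjusted p = 0.00558), 1.37-fold lower, although without late-stage replicate 2 the adjusted p was 0.0519. Of its 3622 exon bases, 511 are shared with the antisense gene AC119228.1, for which no row was analysed here, and the strand setting of the counting is not given in the sources used here. The ratio of Cd274 to Pdcd1lg2 counts was 35.0, 29.8 and 24.9 in WT and 12.8, 10.7 and 10.5 in AMPK-KO. By stage the ratio was 21.9, 20.5 and 19.2 early and 34.4, 32.1 and 38.6 late. The balance between both transcripts was therefore shifted toward PD-L2 in AMPK-KO and toward PD-L1 in late-stage samples, given as a description with no test.

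Cd274 and Pdcd1lg2 are neighbours on chromosome 19, with 22823 bases between the end of the first and the start of the second. Within 200 kb of the start of Cd274, a window chosen after the values were seen, 4 other protein-coding genes were tested. Jak2, the kinase of the interferon-γ receptor, starts at -116 kb from it and was higher in AMPK-KO by 0.53 on the log2 scale (SE 0.07, adjusted p = 2.4e-04). Ric1 was higher by 0.42 (SE 0.09, adjusted p = 0.00990) and Plgrkt, on the opposite strand beside Cd274, by 0.29 (SE 0.09, adjusted p = 0.0359), while Insl6 had 0.05 (SE 0.24, adjusted p = 0.910). Pdcd1lg2 thus stood apart from its neighbours in size, with no test of that difference. By stage these genes were not called, with log2 fold changes of -0.27 for Jak2 (adjusted p = 0.0682), -0.41 for Ric1 (0.0629), -0.10 for Plgrkt (0.520) and -0.42 for Insl6 (0.149).

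**Figure D3:**
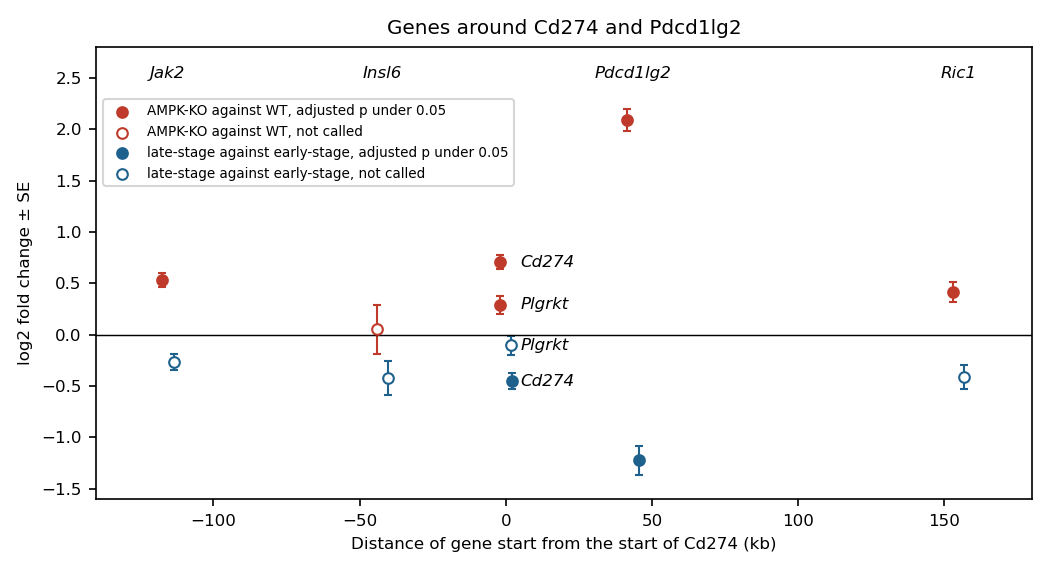
Log2 fold change with its SE (vertical axis) against the distance of each gene's start from the start of Cd274 in kb (horizontal axis), for AMPK-KO against WT in red and late-stage against early-stage in blue, filled where the adjusted p is under 0.05. Pdcd1lg2 has the highest red point (2.09) and the lowest blue point (-1.22) of the 6 genes drawn.

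The B7 ligands of CD28 and CTLA-4 had the same directions as the PD-1 ligands in both comparisons. Cd86 (ENSMUSG00000022901.13, chr16:36603869-36666081, minus strand) was at 79.3, 79.5 and 79.7 CPM in WT and at 115, 103 and 108 CPM in AMPK-KO. The WT samples were nearly equal and all under the AMPK-KO samples, with a log2 fold change of 0.45 (SE 0.06, interval 0.32 to 0.57, adjusted p = 2.9e-04). By stage Cd86 was at 60.9, 64.7 and 70.0 CPM early and at 53.1, 50.0 and 54.9 CPM late. The groups did not overlap and Cd86 fell by 0.31 (SE 0.08, interval -0.49 to -0.12, adjusted p = 0.0458). This stage call was the least firm of the 5, since the adjusted p was 0.142 without early-stage replicate 2, 0.0715 without early-stage replicate 3, and 0.135, 0.204 and 0.116 without late-stage replicates 1, 2 and 3.

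Cd80 (ENSMUSG00000075122.5, chr16:38455561-38496335, plus strand), the less abundant of the pair, was at 18.8, 19.4 and 19.4 CPM in WT and at 26.7, 23.4 and 22.5 CPM in AMPK-KO. It was higher in each AMPK-KO sample, with a log2 fold change of 0.33 (SE 0.09, interval 0.14 to 0.53, adjusted p = 0.0220), which was not called without WT replicate 3 (adjusted p = 0.0747), AMPK-KO replicate 1 (0.0927) or AMPK-KO replicate 2 (0.0566). By stage Cd80 was at 15.5, 17.7 and 15.4 CPM early and at 10.9, 10.9 and 8.65 CPM late. No late-stage sample reached the early-stage range, and Cd80 fell by 0.67 (SE 0.13, interval -0.96 to -0.38, adjusted p = 0.0111), with adjusted p-values of 0.0662 without early-stage replicate 2 and 0.0571 without late-stage replicate 3. There were 4.14 ± 0.0598 Cd86 counts per Cd80 count in WT, 4.50 ± 0.255 in AMPK-KO, 4.05 ± 0.460 in early-stage and 5.27 ± 0.941 in late-stage samples (SD, n = 3). Dendritic cells also carry these ligands, and their markers moved too. The 10 markers of conventional dendritic cells summed to 273 to 293 CPM in WT and 313 to 318 in AMPK-KO (9 higher, 1 lower), and to 180 to 195 early and 148 to 156 late (1 higher, 4 lower). Clec10a, the 1 lower by genotype, was the most abundant of them, with a mean of 183 CPM in WT and 138 in AMPK-KO. It was also among the 4 lower by stage, at 82.7 CPM early and 51.7 late, so both sums depend strongly on this gene. The 8 markers of mature dendritic cells summed to 157 to 164 CPM in WT, 151 to 158 in AMPK-KO, 227 to 259 early and 335 to 406 late, and the part of either list in the values of Cd80 and Cd86 was not tested.

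Cd40 (ENSMUSG00000017652.16, chr2:165055627-165072948, plus strand) rose with genotype and was not called by stage. It was at 54.9, 61.3 and 60.6 CPM in WT and at 88.4, 93.4 and 105 CPM in AMPK-KO, a log2 fold change of 0.69 (SE 0.07, interval 0.53 to 0.86, adjusted p = 9.3e-05). The AMPK-KO samples stood clear of WT. By stage it was at 65.4, 52.0 and 48.8 CPM early and at 59.0, 56.8 and 56.0 CPM late, groups that overlapped, with a log2 fold change of 0.05 (SE 0.11, interval -0.20 to 0.29, adjusted p = 0.837). B cells, dendritic cells and monocytes also express CD40. The 7 B cell markers summed to 36.0 to 36.4 CPM in WT and 20.4 to 22.5 in AMPK-KO (1 higher, 6 lower), while the sums of conventional dendritic cell and monocyte markers given above were higher in AMPK-KO, and the part of these lists in the value of Cd40 was not tested.

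**Figure D4:**
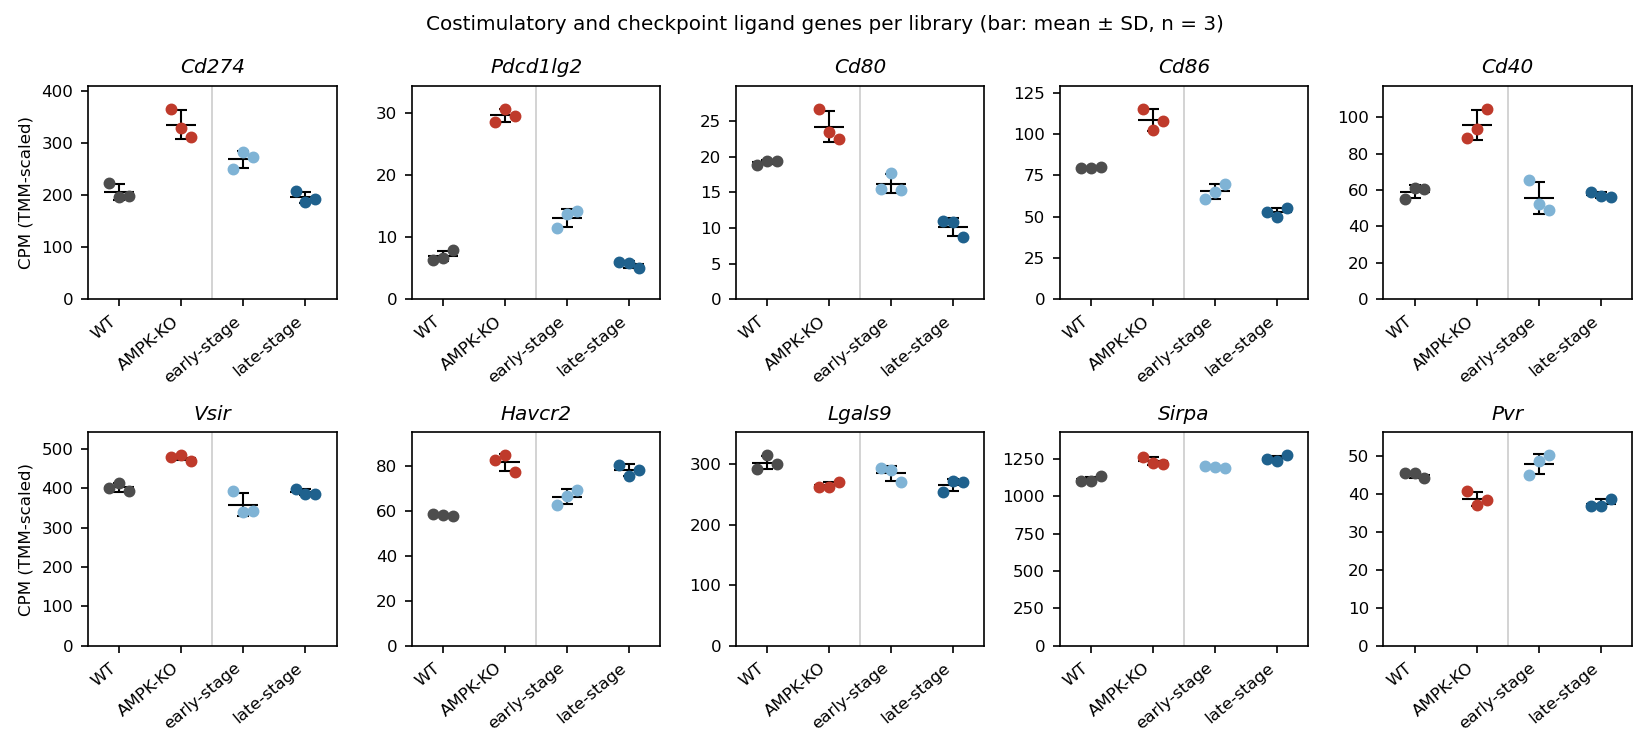
CPM of the 10 members (vertical axis from 0, scaled per gene) in each of the 12 libraries, with points for libraries and bars for the mean ± SD of 3, WT and AMPK-KO left of the grey line and early-stage and late-stage right of it. The AMPK-KO points lie above all WT points for 8 genes and below them for Lgals9 and Pvr.

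Among the inhibitory surface molecules, TIM-3 and VISTA transcripts were higher in AMPK-KO and that of galectin-9, a ligand of TIM-3, was lower. Havcr2 (ENSMUSG00000020399.14, chr11:46454935-46481255, plus strand) was at 58.6, 58.1 and 58.0 CPM in WT and at 82.8, 84.9 and 77.6 CPM in AMPK-KO, with a log2 fold change of 0.49 (SE 0.06, interval 0.37 to 0.61, adjusted p = 1.4e-04). It was the member nearest to a call in the upward direction by stage. Its levels of 62.8, 66.5 and 69.5 CPM early and 80.7, 75.6 and 78.4 CPM late did not overlap, and the log2 fold change was 0.24 (SE 0.07, interval 0.07 to 0.40, adjusted p = 0.0776). Without early-stage replicate 3 the value was 0.27 and the adjusted p 0.0424.

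Vsir (ENSMUSG00000020101.14, chr10:60346851-60372684, plus strand) was at 400, 414 and 394 CPM in WT and at 480, 484 and 471 CPM in AMPK-KO. Its samples were separate, with a log2 fold change of 0.25 (SE 0.04, interval 0.15 to 0.34, adjusted p = 0.00204). By stage the groups overlapped, at 340 to 392 CPM early and 385 to 400 CPM late, with a log2 fold change of 0.12 (SE 0.08, interval -0.04 to 0.29, adjusted p = 0.353). Without early-stage replicate 1, the highest early sample, it was 0.20 (adjusted p = 0.0484).

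Lgals9 (ENSMUSG00000001123.15, chr11:78962974-78984946, minus strand), whose promoter holds the ISRE cores printed above, was at 293, 315 and 301 CPM in WT and at 263, 263 and 271 CPM in AMPK-KO. Every AMPK-KO sample was under every WT sample, and Lgals9 fell by 0.19 (SE 0.05, interval -0.29 to -0.09, adjusted p = 0.0148). Left out singly, WT replicate 2 (adjusted p = 0.0533), WT replicate 3 (0.0536), AMPK-KO replicate 1 (0.0594) and AMPK-KO replicate 2 (0.0735) each ended that call. By stage it was at 271 to 294 CPM early and 255 to 273 CPM late, overlapping groups with a log2 fold change of -0.10 (SE 0.07, interval -0.25 to 0.06, adjusted p = 0.427).

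Sirpa (ENSMUSG00000037902.18, chr2:129592835-129632228, plus strand), the inhibitory receptor of CD47, had the highest counts of the members and a small change. It was at 1106, 1102 and 1135 CPM in WT and at 1267, 1221 and 1219 CPM in AMPK-KO, with a log2 fold change of 0.15 (SE 0.04, interval 0.07 to 0.23, adjusted p = 0.0182). The groups were separate, but the adjusted p was 0.0589 without WT replicate 3, 0.0804 without AMPK-KO replicate 1 and 0.0590 without AMPK-KO replicate 2. By stage the ranges of 1192 to 1202 CPM early and 1239 to 1275 CPM late did not overlap either, and the log2 fold change of 0.07 was not called (SE 0.06, interval -0.06 to 0.20, adjusted p = 0.528). Sirpa has related genes of the Sirpb1 family, and the handling of reads mapped to several places is not given in the sources used here.

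Pvr (ENSMUSG00000040511.14, chr7:19903578-19921160, minus strand) was the member called lower in both comparisons. It was at 45.4, 45.4 and 44.0 CPM in WT and at 40.7, 37.0 and 38.2 CPM in AMPK-KO, and fell by 0.22 (SE 0.06, interval -0.36 to -0.08, adjusted p = 0.0306). By stage it was at 44.8, 48.5 and 50.1 CPM early and at 36.8, 36.7 and 38.7 CPM late, and fell by 0.35 (SE 0.08, interval -0.53 to -0.17, adjusted p = 0.0254). Neither pair of groups overlapped. Both calls were sensitive to single libraries: for genotype the adjusted p was 0.0521, 0.0805 and 0.0704 without WT replicates 1, 2 and 3, 0.132 without AMPK-KO replicate 2 and 0.0792 without AMPK-KO replicate 3, and for stage it was 0.109 without early-stage replicate 2 and 0.101, 0.126 and 0.0907 without late-stage replicates 1, 2 and 3. CD155 is also found on tumor cells, and of the 7 melanoma markers 6 were lower in AMPK-KO and 5 lower in late-stage samples, the same directions as Pvr, in the sums given above. Their part in the value of Pvr was not tested.

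Set on a common scale per exon length (CPM per kb, each experiment scaled on its own), Sirpa stood first and Lgals9 second in all 4 groups. In WT the levels were 227 ± 3.59 for Sirpa, 142 ± 5.20 for Lgals9, 80.3 ± 2.12 for Vsir, 56.8 ± 4.21 for Cd274, 21.7 ± 0.0669 for Cd86, 21.4 ± 0.119 for Havcr2, 17.3 ± 1.03 for Cd40, 7.34 ± 0.131 for Pvr, 5.19 ± 0.0876 for Cd80 and 3.55 ± 0.437 for Pdcd1lg2 (SD, n = 3), with no overlap between neighbours in this order. Pdcd1lg2 was thus last in WT. In AMPK-KO it reached 15.1 ± 0.526 CPM per kb and passed both Cd80 (6.53) and Pvr (6.31), and Cd274 at 92.6 ± 7.65 overlapped with Vsir at 95.4. Havcr2 (30.0), Cd86 (29.6) and Cd40 (28.0) followed, where Cd86 overlapped with either neighbour, as did the last pair, Cd80 and Pvr, with each other. In early-stage samples Cd274 (74.1) and Vsir (71.5) overlapped, as did Cd86 (17.8) and Cd40 (16.3), with Havcr2 (24.4) between these pairs and Pvr (7.81), Pdcd1lg2 (6.69) and Cd80 (4.37) at the end. In late-stage samples Vsir (77.9) was above Cd274 (54.2), followed by Havcr2 (28.8), Cd40 (16.8), Cd86 (14.4) and Pvr (6.11), and Pdcd1lg2 (2.87) and Cd80 (2.74) overlapped in last place.

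Of 14 genes tested by genotype that encode binding partners of the members or other lymphocyte receptors, 11 were higher and 2 lower. Their median log2 fold change was 0.74. Icos, a costimulatory receptor of T cells whose ligand Icosl is not a member, had 1.39 (adjusted p = 7.8e-06). Cd226, which encodes DNAM-1, had 1.35 (3.8e-05), Pdcd1, which encodes PD-1, 1.33 (1.9e-05) and Tigit 1.22 (7.9e-05). Ceacam1, a binding partner of TIM-3, fell by 0.62 (adjusted p = 0.00508) and Hmgb1 by 0.24 (0.00582). Most of these receptors belong to T and NK cells, and the 9 T cell markers summed to 117 to 132 CPM in WT and 212 to 215 in AMPK-KO (8 higher), beside the NK cell markers above (7 of 7 higher). Their part in the receptor values was not tested. Pdcd1 itself was at 10.7 ± 1.15 CPM in WT and 26.9 ± 2.79 in AMPK-KO (SD, n = 3). By stage 4 were higher and 3 lower, with a median of 0.25. Ctla4 (0.76, adjusted p = 0.00877), Cd5 (0.69, 0.00214), Tigit (0.60, 0.0225) and Selplg, which encodes a VISTA ligand (0.39, 0.0345), were higher. Cd226 fell by 1.17 (4.4e-04), Ceacam1 by 0.87 (8.9e-04) and Cd47, the SIRPα ligand, by 0.25 (0.0416). T cell markers summed to 186 to 198 CPM early and 240 to 282 late (4 of 9 higher), while NK cell markers went the other way.

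Of 15 genes of the interferon-γ, JAK-STAT and IRF pathway tested, 13 were higher and 0 lower in AMPK-KO by edgeR, with 14 higher and 0 lower at an unadjusted p under 0.05 and 13 and 0 by DESeq2, and their median log2 fold change was 0.42. Socs1, a feedback inhibitor of JAKs, had 1.50 (adjusted p = 3.1e-06), the transcription factor Irf1 1.06 (3.3e-07) and Nlrc5, the activator of MHC class I genes, 0.71 (2.4e-05). Irf1 went from 144 ± 1.26 CPM to 299 ± 11.1 CPM (SD, n = 3). By stage 0 were higher and 1 lower, with 0 and 4 at an unadjusted p under 0.05, 0 and 2 by DESeq2, and a median of -0.10. The gene lower was Ifngr1, a chain of the interferon-γ receptor, which fell by 0.24 (adjusted p = 0.0474).

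Of 24 genes tested that act below CD40 and SIRPα or on the stability of PD-L1, 16 were higher and 2 lower in AMPK-KO, with a median of 0.25. The CD40 adaptors Traf1 (0.76, adjusted p = 1.3e-05), Traf5 (0.61, 4.8e-04), the ubiquitin ligase Birc3 (0.54, 4.5e-05) and the kinase Ptk2b (0.50, 3.0e-05) were higher, while Nfkbia, the inhibitor of NF-κB, fell by 0.32 (0.00212) and Cmtm4, a protein that stabilizes PD-L1, by 0.72 (2.6e-04). Its relative Cmtm6, also a stabilizer of PD-L1 and named here after its values were seen, was higher by 0.30 (0.00150), at 167 ± 3.91 CPM in WT and 205 ± 6.67 CPM in AMPK-KO (SD, n = 3). Spop, listed for the stability of PD-L1 but not as a stabilizer, and likewise named after its values were seen, was higher by 0.35 (4.6e-04). It was at 182 ± 1.29 CPM in WT and 232 ± 9.22 CPM in AMPK-KO. By stage 3 were higher and 0 lower by edgeR, with 5 higher and 2 lower at an unadjusted p under 0.05 and 4 and 0 by DESeq2, and the median was 0.07. They were Ptk2b (0.38, adjusted p = 0.00573), Fyb (0.27, 0.0499) and Nfkb1 (0.26, 0.0473).

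Other coinhibitory ligands and receptors of myeloid cells were mixed. By genotype 9 of 18 tested were higher and 2 lower, with a median of 0.28, and of the 20 genes listed Vtcn1 did not pass the filter and Lilrb4b was not analysed here. Tnfrsf14, the herpesvirus entry mediator (1.00, adjusted p = 4.5e-06), Cd300lf (0.75, 3.3e-06), Pilra (0.63, 3.1e-05) and the sialic acid receptor Siglece (0.59, 4.6e-05) were higher. Vsig4, a macrophage complement receptor that restrains T cells, fell by 1.85 (2.2e-04) and the B7 family member Cd276 by 0.47 (0.00389). By stage Siglece was higher (1.13, 2.7e-05) and Pirb lower (-0.44, 0.00940), with a median of 0.01. Other costimulatory ligands gave 3 higher and 1 lower of 10 by genotype (median 0.14). They were Tnfsf15 (0.76, 0.0352), the adhesion ligand Icam1 (0.39, 7.3e-04) and the ICOS ligand Icosl (0.33, 0.00680), and the 4-1BB ligand Tnfsf9 fell by 0.54 (9.8e-04). By stage 0 of the 10 were called in either direction by edgeR, with 1 higher and 0 lower both at an unadjusted p under 0.05 and by DESeq2, and a median of 0.02. Of the 84 genes of the 5 lists, 52 were higher and 7 lower by genotype, against 11.3% and 9.78% of all genes tested. By stage 8 were higher and 5 lower, against 4.31% and 4.88% of all genes tested. The counts were 3 and 2 without late-stage replicate 2 or 3, 5 and 2 without early-stage replicate 2, and 5 and 3 without late-stage replicate 1.

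Across the 12 libraries, with the mean of each experiment subtracted, the genes whose log2 CPM followed each member most closely among 16811 were found by Pearson correlation, as a description over libraries that share their groups. For Cd274 they were Csf2rb, a receptor chain of GM-CSF, IL-3 and IL-5 (r = 0.993), Pde4b (0.987) and its neighbour Jak2 (0.984). For Pdcd1lg2 they were the interferon-inducible GTPases Tgtp2 (0.987) and Gbp2b (0.987) and Lilra6 (0.986). For Cd86 they were Phf11d (0.987), Clec4a3 (0.978) and Slamf7 (0.978), and for Cd80 Gpr35 (0.961), Ryr1 (0.955) and Slc30a1 (0.955). Cd274 was the closest member to Pdcd1lg2, Cd86 (both 0.959) and Cd80 (0.809). The closest to Cd40 were Myd88 (0.977), H2-DMa (0.976) and Ctsh (0.975), and to Vsir Lrmp (0.981), Ilvbl (0.971) and Rhoh (0.969), and these members were closest to each other (0.884). Havcr2 had Itgax (0.987), Cd300e (0.986) and Gk (0.985), and Sirpa had P2ry14 (0.972), Klra17 (0.970) and Socs2 (0.969), again each other's closest member (0.936). The members that fell with genotype formed the last pair (0.673), with Cyb5a (0.980), Fth1 (0.976) and Creg1 (0.966) nearest to Lgals9 and Cldn12 (0.976), Snx6 (0.974) and Zwint (0.974) nearest to Pvr.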

How the data were processed

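The authors mapped the reads of 12 TAM libraries with HISAT2 and counted them per gene with featureCounts, as named in the paper's methods and the submitters' processing notes, which also name FastQC, DESeq2 and the builds mm10 and GRCm38. Tool versions, strand setting and handling of multiply mapped reads are not given in the sources used here. They deposited raw counts in 1 table per experiment. Of 55401 gene identifiers, 54349 were found with their version in GENCODE M21, from which positions and exon lengths were taken. Each table was filtered with filterByExpr, scaled by TMM and fitted alone with edgeR 4.0.16 (glmQLFit, glmQLFTest, R 4.3.3). A gene was called at an adjusted p under 0.05 (Benjamini-Hochberg over all genes tested). CPM used TMM library sizes, and log2 CPM a prior count of 2. SD is over the 3 libraries of a group. SE and 95% intervals of a log2 fold change come from the edgeR fit of both groups of a comparison. The text names the 10 members, the targeted genes, up to 4 called genes per list and direction by the size of the change, and per member the 3 genes and the member with the highest correlation, and some genes that the rule names are not reported here. Lyz2 and the neighbours of Cd274 were added, and Cmtm6 and Spop named, after values were seen. The members and lists were chosen with earlier results of these data known. The edgeR and DESeq2 (1.42.0) fits were tested on simulated data. No replicate columns were identical, and replicates of a group differed by more than sampling noise. Alternatives were RLE and upper-quartile factors, DESeq2, other count filters, a replicate block, each library left out, a limit on the fold change, and plain CPM.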

Additional observations from a re-analysis of the deposited data

How the results depend on the processing

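In 12 alternatives each, the calls by genotype of Cd274, Pdcd1lg2, Cd86, Cd40, Vsir and Havcr2 and the call by stage of Pdcd1lg2 held. With 3 samples a group, single libraries decided the smaller changes. With 1 library left out, log2 fold changes by genotype ran from 0.26 to 0.38 for Cd80, -0.21 to -0.16 for Lgals9, 0.13 to 0.16 for Sirpa and -0.26 to -0.19 for Pvr, and by stage from -0.50 to -0.42 for Cd274, -0.73 to -0.57 for Cd80, -0.35 to -0.26 for Cd86, -0.40 to -0.32 for Pvr, 0.086 to 0.20 for Vsir and 0.20 to 0.27 for Havcr2. Cd40 by stage ran from -0.037 to 0.19 and changed sign, uncalled in either direction, without early-stage replicate 3 (-0.037, adjusted p = 0.876).

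With 1 library left out, members called ran from 6 to 8 higher and 0 to 1 lower by genotype and from 0 to 1 higher and 2 to 5 lower by stage. List genes then ran from 41 to 51 higher and 7 to 8 lower by genotype and from 3 to 11 higher and 2 to 7 lower by stage. All genes then ran from 1334 to 2102 higher and 1068 to 1937 lower by genotype and from 284 to 1514 higher and 369 to 1321 lower by stage.

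With a log2 fold change above 1 also required, 1 member was higher and 0 lower by genotype and 1 was lower by stage, list genes gave 7 higher and 1 lower by genotype and 1 higher and 1 lower by stage, and all genes gave 360 and 225 by genotype and 106 and 223 by stage, which follows from the stricter limit. With no filter beyond 1 count, 429 genes were called higher and 507 lower by stage, with 4 and 3 list genes, and Cd86 was -0.31 (adjusted p = 0.0841), where more genes were tested. DESeq2 called 1180 genes higher by stage, and the cause was not tested. Plain CPM put Sirpa in early-stage samples at 1187 CPM, against 1197 CPM.

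The labels number the replicates alike across groups, and samples with the same number had correlations of their deviations between -0.00390 and 0.0423 by genotype and between 0.0132 and 0.0255 by stage, so the numbers were not taken as pairs. With the replicate block, 2029 genes were higher and 1833 lower by genotype, 674 and 743 by stage, 3 list genes were lower by stage, and Cd86 by stage was -0.31 (adjusted p = 0.0631). It changed no other call of a member. For Pdcd1lg2, the member with the fewest counts, 412 to 2466 counts per library limit the precision.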

Other observations

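The other marker lists are given as summed CPM, lowest to highest of 3 libraries. Neutrophil markers were at 95.4 to 101 CPM in WT and 158 to 161 in AMPK-KO (3 of 5 tested higher), and at 73.8 to 87.1 early and 64.4 to 79.3 late (2 of 4 lower). Most of this sum was Csf3r, with a mean of 96.5 CPM in WT and 154 in AMPK-KO. S100a8 was at 1.05 and 2.10 CPM. Plasmacytoid dendritic cell markers were at 554 to 644 CPM in WT and 428 to 466 in AMPK-KO (2 of 5 lower), and at 335 to 568 early and 475 to 486 late. Most of this sum was Bst2, with a mean of 527 CPM in WT and 386 in AMPK-KO. Siglech was at 0.459 and 0.375 CPM. Fibroblast markers were at 575 to 621 CPM in WT and 747 to 828 in AMPK-KO (6 of 7 higher), and at 811 to 884 early and 396 to 561 late (3 of 7 lower). Endothelial markers were at 56.6 to 68.7 CPM in WT and 125 to 128 in AMPK-KO (2 of 5 higher, 1 lower), and at 97.8 to 99.2 early and 86.3 to 90.6 late (1 of 6 lower). By genotype the 2 higher were Pecam1, with a mean of 37.5 CPM in WT and 91.2 in AMPK-KO, and Kdr. The 1 lower was Cdh5, at 3.74 and 2.53 CPM. Erythroid markers were at 22.5 to 25.1 CPM in WT and 7.66 to 9.17 in AMPK-KO (4 of 5 lower), and at 13.9 to 18.5 early and 12.1 to 12.5 late (1 of 5 lower). Basophil and mast cell markers stayed at or under 3.21 CPM in all libraries. B cell markers by stage were at 41.5 to 46.6 CPM early and 63.7 to 92.9 late (4 of 7 higher).

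Prkaa2, which encodes the second catalytic subunit of AMPK, had low counts, at 1.10 CPM in WT and 0.587 CPM in AMPK-KO, with a log2 fold change of -0.91 (adjusted p = 0.0875). Xist had 60 to 158 counts in WT, 0 to 8 in AMPK-KO, 13568 to 22094 in early-stage and 23982 to 41700 in late-stage samples.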
